A study of Mus musculus with 24 samples.

Results

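Gene expression in B16 tumours treated with IL-12 engineered T cells was compared between day 7 and day 3 after cell transfer. B16 is a pigmented mouse melanoma line that grows as a solid tumour under the skin. The comparison uses 8 arrays of the 24 in the series: the 4 IL-12TD tumours taken at day 7 and the 4 taken at day 3, each array a separate biological replicate per the labels. The other 16 arrays are 4 Mock and 4 untreated tumours at each day, and their own day changes are given beside those of the IL-12TD arm for part of the genes and lists.

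Mice were 6 to 12 weeks old and carried tumours from 500000 injected B16 cells. After 10 to 14 days of growth, mice of the IL-12TD and Mock arms received 5 Gy of total body irradiation and 100000 CD8+ pmel-1 T cells. These cells bear a transgenic receptor for a peptide of Pmel, a protein of melanocytes and of B16 cells. In the IL-12TD arm the cells had been transduced to make interleukin 12, and in the Mock arm they had not been transduced. The labels state no irradiation for the untreated mice. The promoter driving the IL-12 gene, the mouse strain and the host cells left after irradiation are not given in the sources used here. Whole tumours were made into single-cell suspensions, so each array reads a mixture of tumour cells, transferred T cells and host cells. Throughout, a change of a gene with the number of cells that express it and a change of its RNA per cell cannot be told apart. The days also cannot be told apart from any processing batch, since no batch or scan date is given.

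IL-12 is a cytokine of activated dendritic cells and macrophages. It signals through the receptor chains Il12rb1 and Il12rb2 and the transcription factor STAT4, and it drives T cells and NK cells to make interferon gamma. Interferon gamma in turn acts on most cells of a tumour and induces guanylate-binding proteins, chemokines and antigen presentation genes. Neutrophils and inflammatory monocytes are drawn in by CXCR2 ligands such as Cxcl2 and by CCR1 ligands such as Ccl3, and cytotoxic T cells kill through perforin and granzymes.

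Values are log2 intensities made by RMA, an array method that corrects background and summarises the probes of a probeset. Levels are given on this log2 scale and are not compared between genes, since probesets differ in brightness. A change is the day 7 mean minus the day 3 mean ± its SE from a limma model over all arrays, with n = 4 per group, and the level of a group is its mean ± SD. Higher, lower, rose and fell are used for genes with a Benjamini-Hochberg adjusted p under 0.05 over the 19938 genes tested. The p-values measure the spread between these arrays.

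In IL-12TD tumours 8330 genes differed between the days by this rule, 41.8% of those tested. Of these, 4030 (20.2%) were higher at day 7 and 4300 (21.6%) were lower, and 986 (4.95%) and 455 (2.28%) changed by at least 2-fold. The median change of all genes was -0.05. A share near 20% in each direction is therefore the level against which a gene list has to be read. Mock tumours had 10152 genes that differed between the days (50.9%; 23.8% higher, 27.1% lower), and untreated tumours 7070 (35.5%; 11.3% higher, 24.2% lower). The difference of the IL-12TD day change from the Mock one was called higher for 24.1% and lower for 18.4% of all genes. Counts of that difference in a list have to be read against these shares.

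Markers of melanocytes were bright on the arrays, as the B16 label calls for. Mean levels at day 3 and day 7 in IL-12TD tumours were 12.5 ± 0.08 and 12.62 ± 0.19 for the pigment enzyme Dct, 11.45 ± 0.09 and 11.73 ± 0.28 for Pmel, and 9.15 ± 0.15 and 8.87 ± 0.26 for tyrosinase, Tyr. None of the 3 differed between the days by the test. With the trend in gene span and level removed, however, Dct (0.53, adjusted p = 0.00222) and Pmel (0.63, adjusted p = 0.000766) were called higher and Tyr lower (-0.50, adjusted p = 0.0158). Correlations between replicate arrays ran from 0.967 to 0.983 at day 3 and from 0.983 to 0.992 at day 7. No IL-12TD array stood apart in these correlations, but untreated day 3 replicate 4 was high for granzymes, at 7.61 for Gzmb (others 4.16 to 4.45) and 6.96 for Gzmd (others 3.42 to 3.74), which enters only the comparison with untreated tumours and the shared variance. The interquartile range of the log2 values averaged 2.26 at day 3 and 2.45 at day 7 in IL-12TD tumours, and 2.76 and 2.22 in Mock tumours, so the spread of the values moved in opposite directions in the arms. Its part in the differences between arms was not tested beyond the second quantile normalization given in the closing section.

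Promoter windows are shown for the gene with the largest fall and for neighbouring granzyme genes with the largest rises among the named genes. The windows are the 250 bases before the annotated start, read 5′ to 3′ on the gene's strand, from RefSeq on GRCm38.p6. Cxcl2 (chr5:90903649-90903898, plus strand) encodes a neutrophil chemokine and fell most. Gzme, Gzmd and Gzmg (chr14:56120626-56120875, chr14:56132594-56132843 and chr14:56159580-56159829, all minus strand) are granzyme genes whose rise is described below. In the Cxcl2 window the capitals mark the matches to a form of the NF-kappaB site, the first of which begins 97 bases before the start. In the granzyme windows the capitals mark the longest run that all 3 share, 38 bases long.
Cxcl2: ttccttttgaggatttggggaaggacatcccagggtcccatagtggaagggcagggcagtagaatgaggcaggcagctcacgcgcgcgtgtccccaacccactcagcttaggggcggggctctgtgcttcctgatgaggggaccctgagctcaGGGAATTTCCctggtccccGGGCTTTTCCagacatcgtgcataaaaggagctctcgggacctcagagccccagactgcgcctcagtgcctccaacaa
Gzme: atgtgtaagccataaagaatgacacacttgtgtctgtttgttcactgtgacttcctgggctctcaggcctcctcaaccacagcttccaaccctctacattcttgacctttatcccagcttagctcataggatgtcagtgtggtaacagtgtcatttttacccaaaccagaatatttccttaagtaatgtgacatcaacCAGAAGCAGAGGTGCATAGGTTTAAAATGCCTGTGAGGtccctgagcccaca
Gzmd: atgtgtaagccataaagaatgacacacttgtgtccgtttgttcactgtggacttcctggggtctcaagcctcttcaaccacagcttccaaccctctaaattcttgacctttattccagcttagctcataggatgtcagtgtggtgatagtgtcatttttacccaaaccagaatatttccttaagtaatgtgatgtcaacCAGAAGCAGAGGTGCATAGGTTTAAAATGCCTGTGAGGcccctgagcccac
Gzmg: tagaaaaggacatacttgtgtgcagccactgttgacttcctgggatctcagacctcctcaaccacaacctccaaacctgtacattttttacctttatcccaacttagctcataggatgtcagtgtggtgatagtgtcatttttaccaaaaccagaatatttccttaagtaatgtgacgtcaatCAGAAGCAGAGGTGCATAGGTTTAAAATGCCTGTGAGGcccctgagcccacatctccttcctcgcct
The Gzmd and Gzme windows were identical at 94.8% of aligned positions, and the Gzmg window matched them at 78.9% and 79.4%. The Gzmd window matched those of Gzma and Gzmb, granzymes that fell, at 49.1% and 47.3%, but it also matched that of Gzmc, which did not pass the test, at 81.3%. The NF-kappaB pattern was searched on both strands, with any base allowed where the runs of capitals in the Cxcl2 window differ from each other. It occurred in 3.03% of the windows of 363 genes that fell by at least 2-fold (11, Cxcl2 among them). In 734 that rose by as much it occurred in 0.954%, and in all 27025 windows in 1.4%. An AP-1 site (8.26%, 3.54% and 6.87%), an interferon response core (4.68%, 2.72% and 3.04%) and a GAS site (7.16%, 6.4% and 7.18%) were also searched in these sets. A higher share among the fallers was thus not particular to the NF-kappaB pattern. A match describes these letters and is not evidence of binding.

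The sharpest falls were in genes of neutrophils and inflammatory myeloid cells. Cxcl2 read 8.72, 9.07, 9.35 and 11.16 on the day 3 arrays and 5.15, 6.02, 4.71 and 6.15 on the day 7 arrays. No day 7 array reached the lowest day 3 array, and the fall was 16.8-fold (-4.07 ± 0.48, adjusted p = 2.79e-07). In Mock tumours Cxcl2 was at 5.89 ± 0.28 and 5.63 ± 0.54, and the IL-12TD day 7 mean was 5.51 ± 0.69, with 1 array below every Mock array. Its receptor Cxcr2, found on neutrophils, read 6.98, 6.16, 5.14 and 7.63 at day 3 and 3.55, 3.7, 3.43 and 3.82 at day 7. Here the day 3 arrays were widely spread while the day 7 arrays were not, and the groups did not overlap (-2.85 ± 0.33, adjusted p = 2.15e-07).

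S100a8 and S100a9 encode the subunits of calprotectin, an abundant protein of neutrophils. S100a8 read 6.9, 7.64, 7.57 and 8.74 at day 3 and 3.89, 4.34, 3.7 and 4.14 at day 7, a 12.9-fold fall (-3.69 ± 0.25, adjusted p = 6.26e-11). S100a9 fell 9.33-fold (-3.22 ± 0.26). Neither gene shared any value between the days. In Mock tumours both rose with time, by 0.62 and 0.86. Of the 20 neutrophil and granulocyte genes measured, 13 fell and 1 rose in IL-12TD tumours, with a median of -0.73. In Mock tumours 0 fell and 8 rose (background 27.1% and 23.8%; median 0.26). The list was dim in Mock tumours (4.3 to 4.43 per array at day 3), where dim genes rose as a class. Of 1027 olfactory receptor genes, a class chosen after the values were seen, 375 rose there and 1 fell (median 0.29). The test of the difference between the arms called 12 of the 20 lower in IL-12TD and 0 higher, against 18.4% and 24.1% of all genes. Of the olfactory receptor genes it called 283 lower and 4 higher. With the span trend removed it called 10 of the 20 lower and 0 higher. The fallers included the neutrophil products Lcn2 (-2.45 ± 0.29), Retnlg (-2.24 ± 0.22) and Mmp8 (-1.72 ± 0.34), the decoy receptor Il1r2 (-2.1 ± 0.35), the lineage antigen Ly6g (-0.95) and the growth factor receptor Csf3r (-0.73 ± 0.16). The granule genes Mpo (-0.03), Elane (-0.02) and Camp (-0.05), did not pass the test. The exception that rose was Wfdc21 (0.76 ± 0.15). The list's mean log2 level per array ran from 5.49 to 6.23 at day 3 and from 4.42 to 4.68 at day 7, against 4.32 to 4.77 in Mock tumours at day 7.

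**Figure D1:**
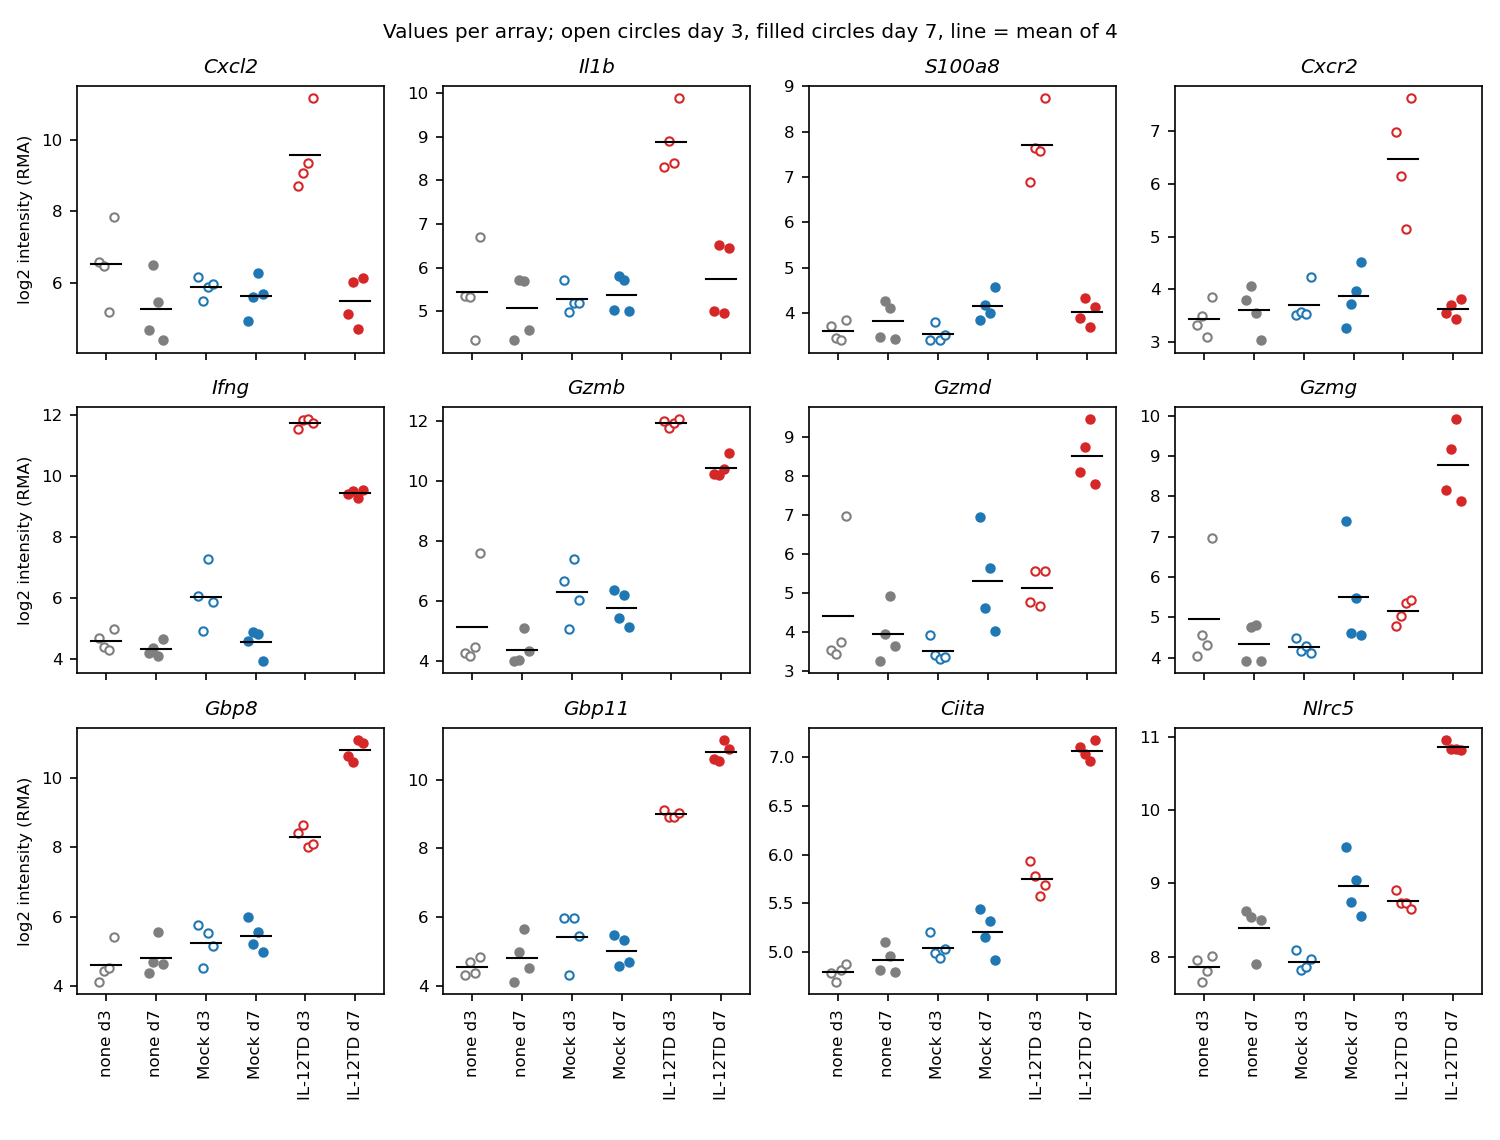
Log2 intensity of 12 genes on each of the 24 arrays, by arm and day. Every point is 1 array and each line a mean of 4, and the vertical axes differ between panels and do not start at 0. Cxcl2, Il1b, S100a8 and Cxcr2 were high in the IL-12TD day 3 arrays and at the level of the other groups by day 7, while Ifng and Gzmb fell from a high level and stayed above the other arms. Gzmd, Gzmg, Gbp8, Gbp11, Ciita and Nlrc5 were highest in the IL-12TD day 7 arrays.

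Inflammatory cytokines and chemokines fell as a group: 20 of 24 were lower at day 7 and 0 higher, with a median of -1.75. In Mock tumours 6 of 24 were lower, with a median of -0.30. The difference between the arms was called lower in IL-12TD for 15, against 18.4% of all genes. Il1b, the main secreted form of interleukin 1, read 8.32, 8.91, 8.41 and 9.89 at day 3 and 5.0, 6.52, 4.97 and 6.45 at day 7 (-3.15 ± 0.42, 8.85-fold, adjusted p = 1.3e-06). The day 7 arrays split into a higher and a lower pair, both below every day 3 array. Il1a fell by 2.90 ± 0.37 and Il1f9, an interleukin 36 cytokine, by 3.17 ± 0.25. Ccl3, a ligand of CCR1, read 11.44, 11.59, 11.31 and 11.77 at day 3 and 7.74, 8.34, 7.14 and 8.46 at day 7 (-3.61 ± 0.4, 12.2-fold). It also fell in Mock tumours (-1.44, adjusted p = 0.00444), and the IL-12TD fall was larger by 2.17 ± 0.57 (adjusted p = 0.0043). Csf2, which encodes GM-CSF, read 6.33, 6.98, 7.01 and 6.99 at day 3 and 3.92, 4.09, 4.28 and 4.21 at day 7 (-2.7 ± 0.14, adjusted p = 1.13e-12). Its day 3 arrays were close together apart from replicate 1, and its day 7 level was that of Mock tumours at day 7 (4.22 ± 0.19).

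Other members included the T and NK cell chemokine Xcl1 (-2.56 ± 0.25), Ccl4 (-2.07 ± 0.19), the acute phase protein Saa3 (-2.32 ± 0.25), the prostaglandin synthase Ptgs2 (-1.77 ± 0.35), Tnf (-1.07 ± 0.21) and Il6 (-1.13 ± 0.14). Ccl22 (-0.16), Il15 (-0.24), Il18 (-0.01) and Ccl7 (-0.70) did not pass the test. Outside the cytokine and neutrophil genes, falls were also found in receptors of myeloid cells: Hcar2, a hydroxycarboxylic acid receptor (-3.32 ± 0.43), the chemokine receptor Ccr1 (-2.67 ± 0.35), the beta-glucan receptor Clec7a (-2.66 ± 0.44) and the activating receptor Trem1 (-2.41 ± 0.3). The LPS coreceptor Cd14 read 6.29, 6.48, 6.48 and 8.02 at day 3 and 4.51, 4.98, 4.97 and 5.39 at day 7 (-1.85 ± 0.29). Replicate 4 of day 3 had the highest value for Cxcl2, Cxcr2, S100a8, Il1b and Cd14 alike, and the falls of all 5 remained significant without it.

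Interferon gamma fell, and with it part of the T cell receptor and coreceptor genes. Ifng read 11.55, 11.82, 11.87 and 11.73 at day 3 and 9.4, 9.51, 9.28 and 9.55 at day 7, a 4.95-fold fall (-2.31 ± 0.28, adjusted p = 4.39e-07). Both groups were tight and far apart. Ifng also fell in Mock tumours, from 6.02 ± 0.97 to 4.55 ± 0.45, and the falls were not shown to differ (-0.84 ± 0.4, adjusted p = 0.0893). Of the 15 T cell receptor and coreceptor genes measured, 6 fell and 0 rose, with a median of -0.41, and 9 did not pass, Cd4 among them (0.39, adjusted p = 0.0689). In Mock tumours 5 rose and 0 fell (median 0.36). Of the 15, 10 were lower in the IL-12TD day change than in the Mock one, against 18.4% of all genes. That list was also dim in Mock tumours (4.6 to 4.95 per array at day 3), where dim genes rose as a class. With the span trend removed 11 of the 15 were lower in that difference (2028 of all 18565 genes). The CD3 chain Cd3d read 6.38, 6.49, 7.03 and 6.85 at day 3 and 5.37, 5.55, 5.33 and 5.32 at day 7 (-1.29 ± 0.16, adjusted p = 7.23e-07). The adhesion receptor Cd2 (-1.17 ± 0.2), the signalling adaptor Lat (-0.96 ± 0.15), the costimulatory receptor Icos (-0.68) and the kinase Zap70 (-0.36) also fell.

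Cd8a, which marks the transferred lineage, read 7.88, 8.04, 7.94 and 7.89 at day 3 and 7.83, 7.93, 7.45 and 7.54 at day 7. The groups overlapped and the change did not pass the test (-0.25 ± 0.16, adjusted p = 0.239), whereas Cd8b1 was called lower (-0.48). In Mock tumours Cd8a rose, from 4.93 ± 0.1 to 5.63 ± 0.28, and the day changes differed (-0.95 ± 0.23, adjusted p = 0.00267). The T cell list's mean level per array was 6.96 to 7.19 at day 3 and 6.38 to 6.77 at day 7, while Mock tumours at day 7 had 5.01 to 5.24. Ptprc, the leukocyte antigen CD45, was at 8.3, 7.83, 7.59 and 8.17 at day 3 and 7.92, 8.51, 8.3 and 8.71 at day 7, with overlap and no call (0.38 ± 0.28, adjusted p = 0.273). Of the 15 pan-leukocyte genes 5 fell and 0 rose (median -0.45), among them the actin regulator Coro1a (-0.93 ± 0.22). Within the IL-12TD arm the 5 called leukocyte genes thus moved the same way as the T cell list, while Ptprc was not called. The part of leukocyte genes in the fall of the T cell list was not tested. In the difference from Mock 1 of these 15 was higher and 1 lower (median -0.03). With the span trend removed 0 were higher and 2 lower (median -0.44). Of the 11 NK cell markers 1 rose and 0 fell, and Ncr1, the receptor NKp46, stayed at 4.89 ± 0.14 and 4.9 ± 0.26.

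Within the IL-12 receptor and STAT4 group of 14 genes, 7 fell and 2 rose (median -0.41). The transcription factors Stat4 (-1.2 ± 0.23) and Tbx21, T-bet (-0.81 ± 0.17), the receptor chains Il2ra (-0.88 ± 0.22) and Il12rb2 (-0.59), and Il10 (-1.22 ± 0.14) were lower. Il2ra read 9.32, 9.05, 9.15 and 9.32 at day 3 and 8.28, 8.39, 7.93 and 8.73 at day 7, without overlap, and Mock tumours were at 4.57 ± 0.29 at day 7. The interleukin 18 receptor gene Il18r1 rose from 5.02, 5.17, 5.18 and 5.33 to 5.82, 6.36, 5.81 and 5.97 (0.82 ± 0.13, adjusted p = 1.56e-05), and Il12rb1 rose by 0.59. The day changes of Stat4, Tbx21, Il10 and Il2ra were lower in IL-12TD than in Mock tumours, and those of Il18r1 and Il12rb1 were higher, that of Il12rb1 not with the span trend removed (0.48, adjusted p = 0.292). The probesets of the cytokine's own subunits were dim and changed little: Il12a rose by 0.39 ± 0.13 (adjusted p = 0.0171), Mock tumours by 0.60, and Il12b rose by 0.42 ± 0.14 (adjusted p = 0.0186). The call on Il12a was lost without day 3 replicate 1 (adjusted p = 0.0973) or day 7 replicate 3 (adjusted p = 0.0654), and that on Il12b without day 3 replicate 2 (adjusted p = 0.083) or day 7 replicate 2 (adjusted p = 0.051) or 3 (adjusted p = 0.0511). Whether these probesets read the introduced gene is not given in the sources used here.

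Of 18 memory, egress and exhaustion genes, 7 fell and 1 rose. The inhibitory receptors Havcr2, TIM-3 (-1.04 ± 0.23), and Cd160 (-0.86 ± 0.13), the homing receptor Ccr7 (-0.8 ± 0.16) and the transcription factor Tox2 (-0.73 ± 0.14) were lower. Pdcd1, PD-1 (0.35 ± 0.15), Lag3 (-0.06 ± 0.16) and Ctla4 (0.04 ± 0.17) did not pass the test. Klf2, a regulator of T cell egress and quiescence that endothelium also expresses, rose (0.6 ± 0.13). Klf2 rose more in Mock tumours (1.14), and the difference was called.

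The granzymes moved in opposite directions. Gzmb, the main granzyme of activated CD8+ T cells, read 12, 11.75, 11.91 and 12.06 at day 3 and 10.24, 10.19, 10.38 and 10.91 at day 7 (-1.5 ± 0.51, adjusted p = 0.019). The groups did not overlap, but the call was lost with a trended and robust variance prior (adjusted p = 0.052). It was also lost when the trend in gene span and level was removed (-1.13, adjusted p = 0.0798). The SE rests on the spread of all groups, the untreated day 3 array that was high for Gzmb included, and the part of that array was not tested. Gzma read 10.55, 10.65, 10.81 and 11.02 at day 3 and 8.28, 8.39, 8.57 and 8.59 at day 7 (-2.3 ± 0.33, 4.93-fold, adjusted p = 4.49e-06). Against these falls stood the largest rises among the named genes. Gzmg read 4.78, 5.04, 5.35 and 5.42 at day 3 and 8.15, 9.17, 9.92 and 7.89 at day 7 (3.63 ± 0.52, 12.4-fold, adjusted p = 3.94e-06). Gzmd read 4.75, 5.55, 4.66 and 5.56 at day 3 and 8.09, 8.74, 9.45 and 7.78 at day 7 (3.38 ± 0.58, 10.4-fold). Neither pair of groups overlapped, although the day 7 values spread over more than 1 log2 unit.

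Gzme (2.49 ± 0.5) and Gzmf (2.36 ± 0.4) rose as well, without overlap. On chromosome 14 the cluster runs in the order Ctsg, Gzme, Gzmd, Gzmg, Gzmn, Gzmf, Gzmc, Gzmb, and within it Gzmn fell (-0.69 ± 0.16), Gzmc did not pass (-0.16 ± 0.52, adjusted p = 0.828) and the neighbouring serine protease Ctsg rose by 0.54. Granzymes D, E, F and G are related in sequence, though only their promoter windows were compared here. Their probesets may share signal, so the value of each single gene is uncertain. In Mock tumours Gzmd rose by 1.8 (adjusted p = 0.0116), Gzme by 1.7, Gzmf by 1.21 and Gzmg by 1.24 (adjusted p = 0.0494), with day 7 SDs from 0.93 to 1.32. The larger change in IL-12TD tumours passed the test of the difference for Gzmg (2.39 ± 0.74, adjusted p = 0.0123) and not for Gzmd (1.58 ± 0.82, adjusted p = 0.116), Gzme (adjusted p = 0.367) or Gzmf (adjusted p = 0.101). The pore-forming protein Prf1 did not pass the test (0.02 ± 0.28, adjusted p = 0.959). Of the 16 cytotoxic effector genes 3 rose and 6 fell, and the fallers included the receptors Klrd1 (-0.79 ± 0.21) and Klrk1, NKG2D (-0.65 ± 0.16), and the death ligand Fasl (-0.46, not called with the span trend removed, adjusted p = 0.0927).

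While Ifng fell, genes induced by interferon gamma rose. Of 19 measured genes of the interferon gamma response 11 rose and 2 fell, with a median of 0.75. In Mock tumours 0 rose and 6 fell (median -0.41), and the difference between the arms was called higher in IL-12TD for 12 of 19 and lower for 0. With the span trend removed it was called higher for 7 and lower for 1 of 17, against 2027 and 2028 of all 18565 genes. The guanylate-binding proteins, GTPases that attack intracellular pathogens, rose most. Gbp8 read 8.43, 8.64, 8.01 and 8.11 at day 3 and 10.63, 10.47, 11.11 and 11.03 at day 7 (2.51 ± 0.27, 5.71-fold, adjusted p = 8.28e-08). In Mock tumours it stood at 5.24 ± 0.53 and 5.43 ± 0.44. Gbp11 read 9.12, 8.9, 8.9 and 9.04 at day 3 and 10.6, 10.53, 11.16 and 10.9 at day 7 (1.81 ± 0.29). Gbp4 (1.83 ± 0.53, adjusted p = 0.00645) and Gbp9 (1.48) followed, while Gbp3 did not pass (-0.09). The members of this family are similar in sequence and may share probe signal.

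The transcription factors Irf8 and Irf1 rose too. Irf8 read 9.67, 9.53, 9.49 and 9.53 at day 3 and 10.42, 10.42, 10.38 and 10.34 at day 7 (0.84 ± 0.23, adjusted p = 0.00392), and Irf1 rose by 0.81 ± 0.26 (adjusted p = 0.013). In Mock tumours Irf1 fell (-0.71), and both genes differed between the arms, Irf8 not with the span trend removed (0.70, adjusted p = 0.125). The tryptophan-degrading enzyme Ido1 rose by 1.15 ± 0.22. Not all genes of the list followed: Nos2, the inducible nitric oxide synthase, fell (-0.84 ± 0.27, adjusted p = 0.0154) with overlap between the days, and the feedback inhibitor Socs1 fell by 0.43, a call lost with the span trend removed (adjusted p = 0.245). The call on Nos2 was lost without day 3 replicate 1 (adjusted p = 0.0624) or 2 (adjusted p = 0.0524) and without day 7 replicate 1 (adjusted p = 0.0584) or 3 (adjusted p = 0.0735). The chemokines Cxcl9 (-1.16 ± 0.5, adjusted p = 0.0644) and Cxcl10 (-0.61 ± 0.28, adjusted p = 0.0842) did not pass. Cd274, the checkpoint ligand PD-L1, read 10.14, 10.06, 9.79 and 10.23 at day 3 and 10.54, 10.45, 10.62 and 10.7 at day 7. These values do not overlap, but the change did not pass in the model of all arrays (0.53 ± 0.22, adjusted p = 0.0614). It passed when quantile normalization was repeated (adjusted p = 0.0325) or when only the compared arrays were fitted (adjusted p = 0.0045).

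The coactivators of antigen presentation genes rose, while few of the presentation genes were called. Ciita, the coactivator of MHC class II genes, read 5.93, 5.78, 5.58 and 5.69 at day 3 and 7.11, 7.03, 6.96 and 7.18 at day 7 (1.32 ± 0.12, adjusted p = 3.68e-09). Nlrc5, the coactivator of MHC class I genes, read 8.91, 8.73, 8.73 and 8.65 at day 3 and 10.96, 10.83, 10.83 and 10.82 at day 7 (2.1 ± 0.16, 4.29-fold, adjusted p = 3.16e-10). Both were tight within each day and far apart between days. Ciita did not pass the test in Mock tumours (0.17, adjusted p = 0.237), while Nlrc5 rose there by 1.03, and for Nlrc5 the difference between the arms was not called after removal of the gene span trend (0.30, adjusted p = 0.327). Nlrc5 has 18 other probesets for 1 gene, and none of these disagreed in direction. Of 13 class II presentation genes 2 rose and 2 fell. H2-Eb1, a class II chain, rose by 0.62 ± 0.22, and H2-Aa read 9.73, 9.66, 9.54 and 9.83 at day 3 and 10.46, 10.46, 10.39 and 10.46 at day 7, without overlap and without a call (0.75 ± 0.32, adjusted p = 0.0564). Its call depended on the spread borrowed from the other groups: with only the compared arrays fitted it passed (adjusted p = 0.000125). The costimulatory ligands Cd80 (-1.31 ± 0.26) and Cd40 (-0.58) were the fallers. Of 16 class I presentation genes 2 rose and 3 fell, with the peptide transporter Tap1 at 0.56 ± 0.26 (adjusted p = 0.0897, and 0.84 with adjusted p = 0.0113 once the span trend was removed) and the chaperone Pdia3 at -1.09 ± 0.17.

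The type I interferon list split. Of 21 genes 4 rose and 7 fell (median -0.31), whereas in Mock tumours 2 rose and 13 fell (median -0.76). The antiviral GTPases Mx2 (1.71 ± 0.23) and Mx1 (1.2 ± 0.2), the signal transducer Stat2 (1.58 ± 0.21) and the RNA-sensing enzyme Oas2 (1.18 ± 0.27) rose. Rtp4 (-0.97 ± 0.23), Usp18, a brake on interferon signalling (-0.76 ± 0.23), and Oasl1 (-0.83) fell. The difference between the arms was called higher in IL-12TD for 7 and lower for 2. With the span trend removed it was called for 1 and 3 of 19 (2027 and 2028 of all 18565 genes).

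**Figure D2:**
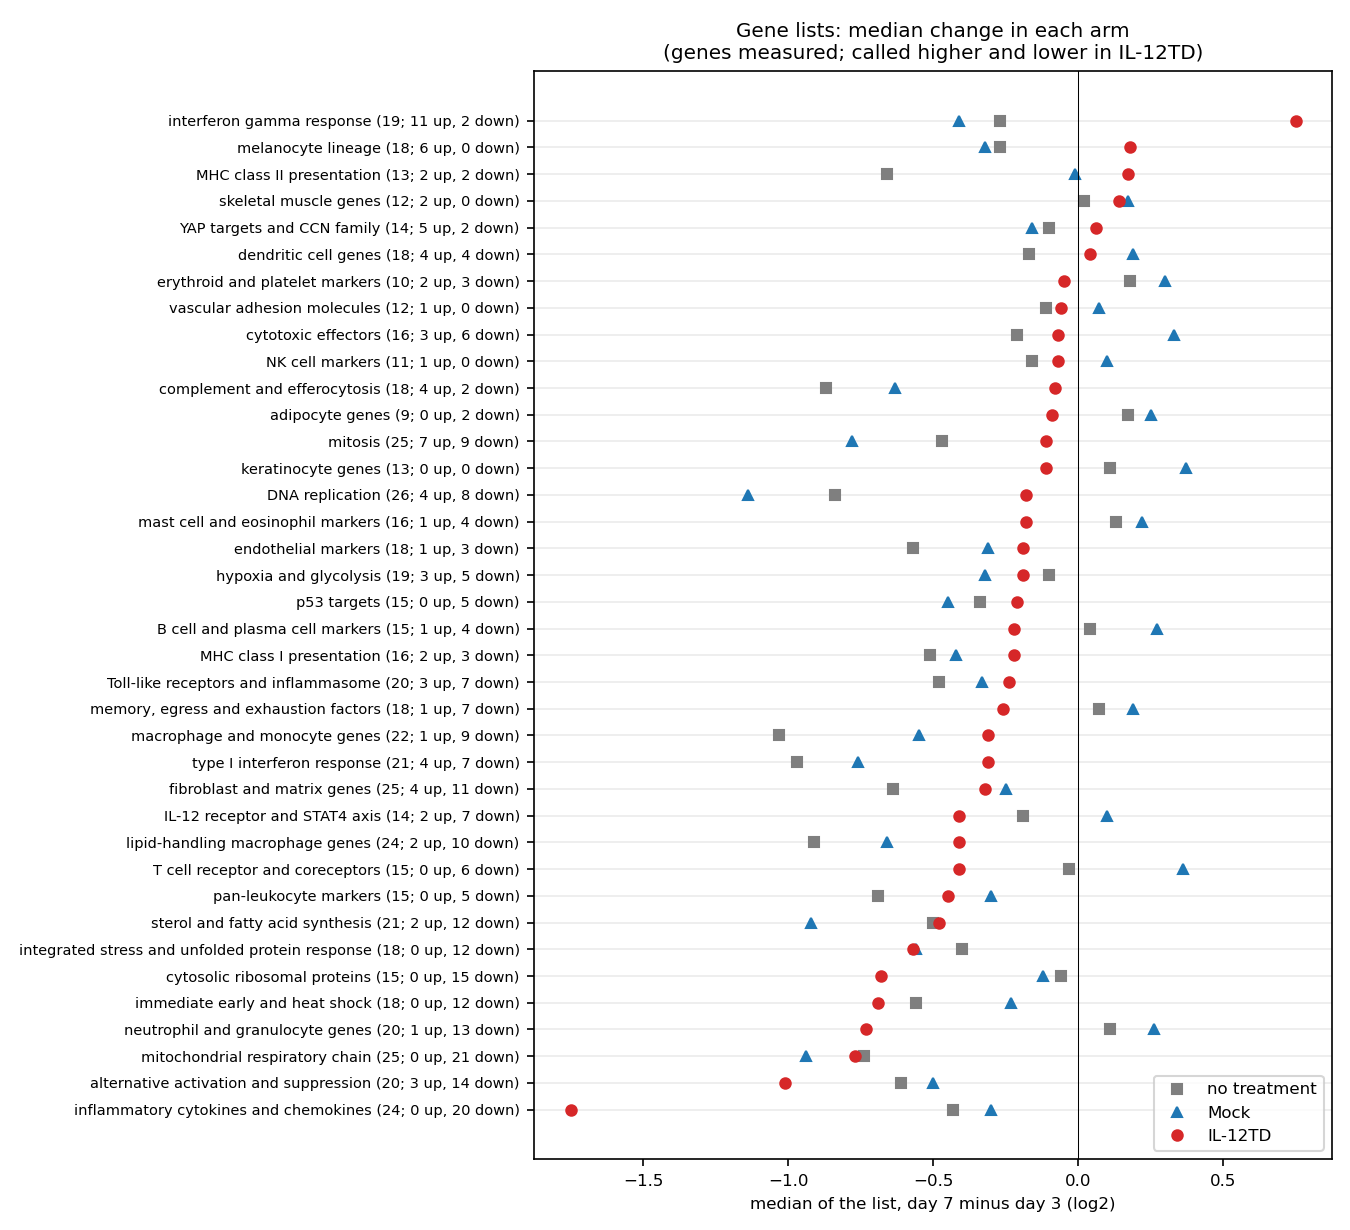
Median log2 change from day 3 to day 7 of 38 gene lists in the IL-12TD, Mock and untreated arms. Each row names the list, its number of measured genes and how many of them were called higher and lower in IL-12TD tumours. The IL-12TD median was highest for the interferon gamma response (0.75) and lowest for inflammatory cytokines and chemokines (-1.75), and it lay apart from both other arms at each of these ends.

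The macrophage lists fell in part, and more so the genes of alternative activation. Of 22 macrophage and monocyte genes 9 fell and 1 rose (median -0.31), and Mock tumours had 8 and 1 (median -0.55). The lineage receptor Csf1r (0.07 ± 0.27, adjusted p = 0.85) and Adgre1, a surface antigen of mature macrophages (0.15 ± 0.37, adjusted p = 0.765), were not called. C1qa, a complement subunit made by macrophages, read 8.71, 7.88, 7.03 and 8.12 at day 3 and 7.72, 7.82, 7.49 and 7.78 at day 7 and overlapped. The 20 genes of alternative activation and suppression fell in 14 cases and rose in 3 (median -1.01), against 11 and 1 in Mock tumours (median -0.50). Arg1, which depletes arginine, read 8.36, 8.78, 8.19 and 8.44 at day 3 and 6.35, 7.33, 6.34 and 6.86 at day 7 (-1.72 ± 0.3, 3.3-fold, adjusted p = 4.65e-05). It fell more than in Mock tumours, where the change did not pass (difference -1.22 ± 0.42, adjusted p = 0.0232). The lectin Clec10a (-2.01), the chitinase-like Chil3 (-1.73) and the chemokine Ccl24 (-1.77 ± 0.18) also fell. With the span trend removed the difference from Mock was called for Ccl24 (-1.13, adjusted p = 0.00485). It was not called for Clec10a (-0.03, adjusted p = 0.98) or Chil3 (-0.79, adjusted p = 0.3).

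The members of that list that rose were Vegfa, Maf and Stab1, and they differ in role. Vegfa, the angiogenic factor, rose by 1.11 ± 0.2, less than in Mock tumours (1.99), and the difference was called (adjusted p = 0.0167). The transcription factor Maf rose by 1.26 ± 0.37 with overlapping groups. Stab1, a scavenger receptor of tissue macrophages and sinusoidal endothelium, read 5.61, 5.21, 5.32 and 5.23 at day 3 and 6.41, 6.49, 6.3 and 6.55 at day 7 (1.1 ± 0.19, adjusted p = 4.66e-05), and it fell in Mock tumours (-0.49). Of the 18 complement and efferocytosis genes 4 rose and 2 fell (median -0.08), close to the share of all genes, while in Mock tumours 0 rose and 10 fell. The members that fell were Gas6 (-0.64) and Pros1 (-0.63), ligands of the receptors that rose. Axl (1 ± 0.24) and Mertk (0.68 ± 0.18), receptors for apoptotic cells, and the complement component C4b (1.03 ± 0.2) rose, as did the cholesterol exporter Abca1 of the lipid-handling list (1.1 ± 0.23, and 0.57 with the span trend removed). All 4 had a higher day change than in Mock tumours, but for Axl and Mertk the difference was not called after removal of the span trend (adjusted p = 0.226 and 0.467), and Mertk itself was not (0.26, adjusted p = 0.147). The difference was called higher in IL-12TD for 8 of the 18, and for 4 with the span trend removed (2027 of all 18565 genes).

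Among innate sensors 3 of 20 rose and 7 fell. The pore-forming protein of pyroptosis, Gsdmd, rose from 7.17 ± 0.07 to 8.29 ± 0.05 (1.12 ± 0.13, adjusted p = 3.11e-07), and Casp12 (0.97 ± 0.31) and Casp4 (0.60) also rose. The difference from Mock was called for all 3, that of Casp4 not with the span trend removed (0.51, adjusted p = 0.159). Ly96, the LPS receptor partner MD-2, fell by 2.33 ± 0.31, and it fell by 2.82 in Mock tumours, with no difference called (adjusted p = 0.361). The inflammasome sensor Nlrp3 fell by 1.25. Of the 18 dendritic cell genes 4 rose and 4 fell, with the endocytic receptor Ly75 at 1.19 ± 0.2 and the migration gene Fscn1 at -1.03 ± 0.17.

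Lists of other cell types varied in their share of calls. Of 15 B cell and plasma cell markers 4 fell and 1 rose, and Cd79a fell (-0.79 ± 0.21) with overlap. The histidine decarboxylase Hdc, made by mast cells, basophils and neutrophils, fell by 1.9 ± 0.24, although the mast cell and eosinophil list had 4 lower and 1 higher of 16. The higher one was Kit, which melanocytes also express. Of 18 endothelial markers 3 fell, including Emcn (-1.34 ± 0.17) and Cdh5 (-0.65 ± 0.16), and 1 rose, Vwf (1.15 ± 0.14, and 0.75 with the span trend removed). In Mock tumours 8 of the 18 fell and 3 rose, and in untreated tumours 11 fell and 1 rose. No keratinocyte gene of 13 was called, and 2 of 12 skeletal muscle genes rose. Of 10 erythroid and platelet markers 2 rose and 3 fell. Alas2, an enzyme of haem synthesis in red cell precursors, rose from 4.55 ± 0.18 to 6.06 ± 0.66 (1.5 ± 0.29), while in Mock tumours it rose by 4.18 to 8.52 ± 0.41. The difference was -2.68 ± 0.4 (adjusted p = 4.16e-05). The platelet genes Pf4 (-1.67 ± 0.31) and Ppbp (-1.61 ± 0.36) fell, while the platelet integrin Itga2b rose (0.42) and Gp9 did not pass (-0.16).

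Fibroblast and matrix genes fell in 11 of 25 cases and rose in 4 (median -0.32), against 10 and 2 in Mock tumours (median -0.25). The collagenase Mmp13 (-2.27 ± 0.44), the gelatinase Mmp2 (-1.3 ± 0.17), the inhibitor Timp1 (-1.43 ± 0.14) and the collagen chain Col1a1 (-0.67 ± 0.17) fell, while fibronectin, Fn1 (0.69 ± 0.17), and the fibroblast protease Fap (0.71 ± 0.15) rose. Thbs1, a thrombospondin, fell by 1.2 ± 0.33 and its relative Thbs2 rose by 0.52 ± 0.18, a call lost with the span trend removed (adjusted p = 0.072). Thbs2 fell in Mock tumours (-1.14), and the arms differed (1.66 ± 0.26, adjusted p = 5.66e-05). Of 14 YAP target and CCN genes 5 rose and 2 fell. Among them Ccn1, a matricellular protein, fell by 1.68 ± 0.22 and the transcription factor Tead1, whose gene spans 227 kb, rose by 1.08 ± 0.15, or by 0.36 with the span trend removed.

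Tumour cell genes gave a mixed picture. Of 18 melanocyte lineage genes 6 rose and 0 fell in IL-12TD tumours (median 0.18), whereas in Mock tumours 1 rose and 8 fell (median -0.32). The difference was called higher in IL-12TD for 12 of 18 and lower for 0. With the span trend removed it was called for 4 and 0 (2027 and 2028 of all 18565 genes). The starting points differed. The list's mean level per array was 8.64 to 8.77 at day 3 and 8.81 to 9.27 at day 7 in IL-12TD tumours. In Mock tumours it was 9.26 to 9.35 and 8.49 to 9.43, so the IL-12TD arm was lower at day 3 and overlapped Mock at day 7. Kit, the stem cell factor receptor, read 5.15, 4.63, 5.11 and 4.91 at day 3 and 6.7, 6.28, 6.17 and 6.02 at day 7 (1.34 ± 0.21, adjusted p = 1.01e-05). Oca2, a melanosomal membrane protein, read 6.61, 6.58, 6.5 and 6.65 at day 3 and 8.79, 8.22, 8.76 and 8.15 at day 7 (1.89 ± 0.23, 3.71-fold). Neither gene overlapped between the days. The HGF receptor Met rose by 1.16 ± 0.22 and the lineage transcription factor Mitf by 0.89 ± 0.19, but another Mitf probeset fell (-1.02, adjusted p = 0.000132). Oca2 and Mitf span 297 and 214 kb, and after removal of the span trend their changes were 1.09 (adjusted p = 2.4e-05) and 0.28 (adjusted p = 0.0911). Gpnmb, expressed by melanocytes and macrophages, rose by 0.49 ± 0.14, a call lost after repeated quantile normalization (0.31, adjusted p = 0.0692).

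Cell division genes split in both directions in IL-12TD tumours and mostly fell in Mock tumours. Of 26 DNA replication genes 4 rose and 8 fell (median -0.18), against 1 and 22 in Mock tumours (median -1.14). The difference was called higher in IL-12TD for 21 and lower for 0, against 24.1% and 18.4% of all genes. Of 25 mitosis genes 7 rose and 9 fell (median -0.11), against 0 and 19 in Mock tumours. Between the arms 17 of them differed, all higher, against 8 with the span trend removed (2027 of all 18565 genes). These are the arms' own values with different starting points: the mean level of the mitosis list per array was 6.33 to 6.47 at day 3 and 6.31 to 6.4 at day 7 in IL-12TD tumours, and 7.56 to 7.76 and 6.72 to 7.21 in Mock tumours. The IL-12TD arm was thus lower at both days. Mcm2, a subunit of the replicative helicase, read 7.45, 7.3, 7.34 and 7.5 at day 3 and 7.54, 7.03, 7.15 and 7.12 at day 7 (-0.19 ± 0.16), while in Mock tumours it fell from 9.08 ± 0.19 to 7.66 ± 0.35. The proliferation marker Mki67 rose by 0.6 ± 0.15, the kinetochore motor Cenpe by 0.98 ± 0.16 and the polymerase subunit Pola1 by 1.02 ± 0.2, or 0.44 with the span trend removed (328 kb). Rfc4, a clamp loader subunit, fell by 1.22 ± 0.22, and Cdc20, an activator of mitotic exit, by 0.93 ± 0.15.

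Respiratory chain, stress response and immediate early genes fell in most cases before removal of the span trend. With it removed 17 of 25, 8 of 18 and 9 of 18 genes of these lists were lower, and 0, 1 and 2 higher. Of 25 respiratory chain genes 21 fell and 0 rose (median -0.77), with Ndufa2 of complex I at -1.6 ± 0.15 and Atp5o of ATP synthase at -1.49 ± 0.14. In Mock tumours 24 fell (median -0.94). The difference was called for 6 of 25, 5 higher and 1 lower in IL-12TD, against 24.1% and 18.4% of all genes. Sterol and fatty acid synthesis genes fell in 12 of 21 cases, including the desaturase Scd1 (-1.48 ± 0.22), while Acaca, which makes malonyl-CoA, rose (1.32 ± 0.17, or 0.54 with the span trend removed; 272 kb). In Mock tumours 18 of the 21 fell and 0 rose (median -0.92). The difference was called higher in IL-12TD for 7 and lower for 0, or 1 and 1 with the span trend removed. Of 18 genes of the integrated stress and unfolded protein responses 12 fell and 0 rose (median -0.57), with 13 lower and 1 higher in Mock tumours, among them asparagine synthetase, Asns (-0.98 ± 0.14). Of 18 immediate early and heat shock genes 12 fell and 0 rose (median -0.69), against 3 lower and 2 higher in Mock tumours. The transcription factor Egr1 (-1.06 ± 0.15) and the chaperone Hspa1a (-1.1 ± 0.25) were among those with a lower day change than in Mock, which 9 of the 18 had, though for Hspa1a not with the span trend removed (adjusted p = 0.107). Among p53 targets 5 of 15 fell and 0 rose, or 3 and 1 with the span trend removed, and in Mock tumours 8 fell and 0 rose. Among genes of glycolysis and the hypoxia response 5 of 19 fell and 3 rose, or 3 and 7 with the span trend removed. In Mock tumours 10 of the 19 fell and 4 rose.

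All 15 cytosolic ribosomal protein genes on the list fell in IL-12TD tumours (median -0.68), while in Mock tumours 4 fell (median -0.12), and the difference was called lower in IL-12TD for 9. The list's mean level per array ran from 10.17 to 10.38 at day 3 and from 9.46 to 9.85 at day 7. Rps14 fell by 1.3 ± 0.18 and Rpl5 by 0.94 ± 0.13. Over all 55 genes with such names, a class set up after the values were seen, 48 fell and 2 rose. These genes are short, and after the span and level trend was removed 4 of the 15 were called lower in IL-12TD tumours, with Rps14 at -0.83 and Rpl5 at -0.55. The difference from Mock was still called lower for 9 of the 15, with a median of -0.63.

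Long genes were called higher at day 7 more often than short ones. Among the brighter part of 18565 protein-coding genes with a known span (9647 genes), split into 10 groups of near-equal size by span, the group with the shortest spans (median 2.82 kb) had a median change of -0.30, and the group with the longest (median 175 kb) had 0.54. The share called higher rose from 11% to 61.7% across these groups and the share called lower fell from 46.0% to 5.08%. In Mock tumours the medians were -0.16 in the shortest group, -0.45 in the middle and -0.20 in the longest, and the median difference between the arms went from -0.13 to 0.75. The genes whose day change exceeded Mock most were long, or not short: Slit2, an axon guidance ligand (2.98 ± 0.37, 326 kb), the DNA damage kinase Atm (2.75 ± 0.34, 99.7 kb), the TFIID subunit Taf2 (2.55 ± 0.31, 57.1 kb), the ephrin receptor Epha3 (2.52 ± 0.45, 321 kb), the kinase Cdc42bpa (2.45 ± 0.31, 206 kb), the endocytic receptor Cubn (2.44 ± 0.29, 216 kb), the glutamate receptor Grik2 (2.41 ± 0.34, 696 kb) and Nbeal1 (2.4 ± 0.38, 160 kb). Within IL-12TD tumours these 8 changed by less, by 2.46, 1.72, 1.48, 1.57, 2.13, 1.5, 2.19 and 1.77 in the same order. Taf2 went from 6.57 ± 0.26 to 8.05 ± 0.42 in IL-12TD tumours and from 8.33 ± 0.17 to 7.26 ± 0.58 in Mock tumours. Slit2 read 5.64, 5.93, 5.58 and 5.93 at day 3 and 8.56, 7.84, 8.4 and 8.13 at day 7 in IL-12TD tumours, without overlap. With the span and level trend removed all 8 differences were smaller but still called, with Slit2 at 2.21 and Nbeal1 at 1.58.

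**Figure D3:**
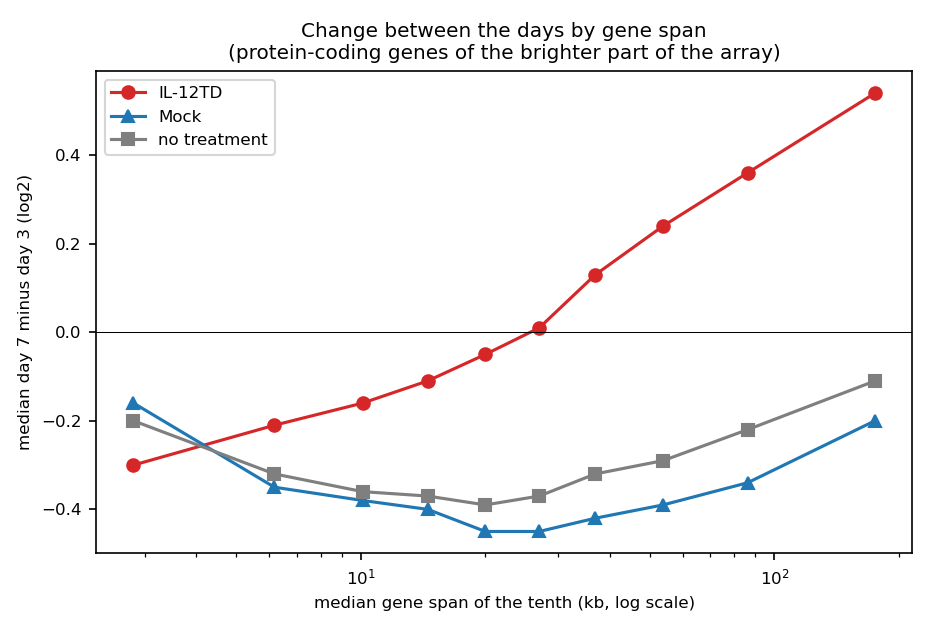
Median log2 change from day 3 to day 7 in 10 groups of protein-coding genes ordered by genomic span (log axis, kb), for genes in the brighter part of the array. In IL-12TD tumours the median climbed from -0.30 to 0.54 with span, while in Mock and untreated tumours it stayed below 0 in each of the 10.

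Most immune genes named above kept their change when the trend in span and level was removed. The granzymes D, E and G have spans of 3.05, 3.01 and 3 kb and rose, and with the trend removed Gzme was at 2.54, Gzmd was at 3.43 and Gzmg at 3.69. Cxcl2, Il1b, S100a8 and Ifng changed by -3.83, -3.09, -3.7 and -2.08 after its removal, and Gbp8 and Ciita by 2.29 and 1.14. In that fit 7060 of the 18565 genes were called, and of the 7791 earlier calls it could test 5510 were kept and 16 turned direction. Of the 842 genes 2-fold higher 834 remained called, and of the 446 genes 2-fold lower 439. The list counts without the trend were 18 lower of 24 for inflammatory cytokines, 12 lower of 20 for neutrophil genes, 7 lower of 15 for T cell genes, 8 higher and 1 lower of 17 for the interferon gamma response, and 10 higher and 2 lower of 18 for the melanocyte lineage.

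Nuclear RNAs were another part of the rise, and these classes were chosen after the values were seen. Of 54 small nucleolar RNA names 53 rose and 0 fell in IL-12TD tumours, with a median of 2.37. In Mock tumours 47 rose (median 1.45) and in untreated tumours 49 (median 2.05; background of rises 11.3%), so this rise was found in every arm. Snord118 read 6.98, 6.53, 6.96 and 6.67 at day 3 and 11.59, 12.51, 12.64 and 12.84 at day 7 (5.61 ± 0.52). The long noncoding RNA Malat1 rose by 2.52 ± 0.32 in IL-12TD and by 2.52 in Mock tumours. Gas5, a host gene of small nucleolar RNAs, read 6.78, 7.02, 7.2 and 7.12 at day 3 and 9.65, 9.82, 9.82 and 9.9 at day 7 (2.77 ± 0.18), and Firre rose by 3.24 ± 0.3. The noncoding RNA Lncpint (3.34 ± 0.29), Gdap10 (3.29 ± 0.29) and Phxr4 (3.29 ± 0.32) were among the largest rises. Gas5, Firre and Lncpint rose by 2.33, 2.32 and 2.5 in Mock tumours, and their differences between arms were not called.

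Of the other large rises, Hmcn1, an extracellular matrix protein, read 7.21, 6.91, 5.94 and 6.51 at day 3 and 9.65, 9.56, 9.46 and 9.59 at day 7 (2.92 ± 0.31). Ogt, the enzyme that adds O-GlcNAc to proteins, read 7.43, 7.86, 7.29 and 7.56 at day 3 and 10.44, 10.13, 10.65 and 10.54 at day 7 (2.91 ± 0.23). Neither overlapped. Both rose by less in Mock tumours (0.78 and 0.75), and the differences were called (2.14 ± 0.44 and 2.15 ± 0.33). The glycoprotein folding sensor Uggt2 (2.9 ± 0.3) and the zinc finger gene Zfc3h1 (2.77 ± 0.29) also rose more than in Mock tumours, whereas for Kansl1, a chromatin gene (2.81 ± 0.38), the difference was not called (adjusted p = 0.244).

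Set beside the Mock arm, the time course of IL-12TD tumours was partly shared and partly its own. The difference between the day changes was called for 8467 genes (42.5%), 4800 higher and 3667 lower in IL-12TD. Of the 986 genes that rose 2-fold in IL-12TD tumours, 478 also rose in Mock tumours, 52 fell there, and 719 differed in the direction of a larger change. Of the 455 that fell 2-fold, 286 also fell in Mock tumours, 8 rose there, and 181 differed in the direction of a larger fall. The 8 genes with the largest fall beyond Mock were S100a8 (-4.31 ± 0.36), S100a9 (-4.08 ± 0.37), Cxcl2 (-3.81 ± 0.68), Il1f9 (-3.3 ± 0.35), Il1b (-3.26 ± 0.59), Cxcr2 (-3.01 ± 0.47), Trem1 (-2.95 ± 0.42) and Csf2 (-2.9 ± 0.2), all described above among the neutrophil genes, the inflammatory cytokines and chemokines, or the receptors of myeloid cells. Against the untreated arm 5517 genes differed (27.7%; 18.6% higher, 9.11% lower), and these 8 were among the lower ones.

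**Figure D4:**
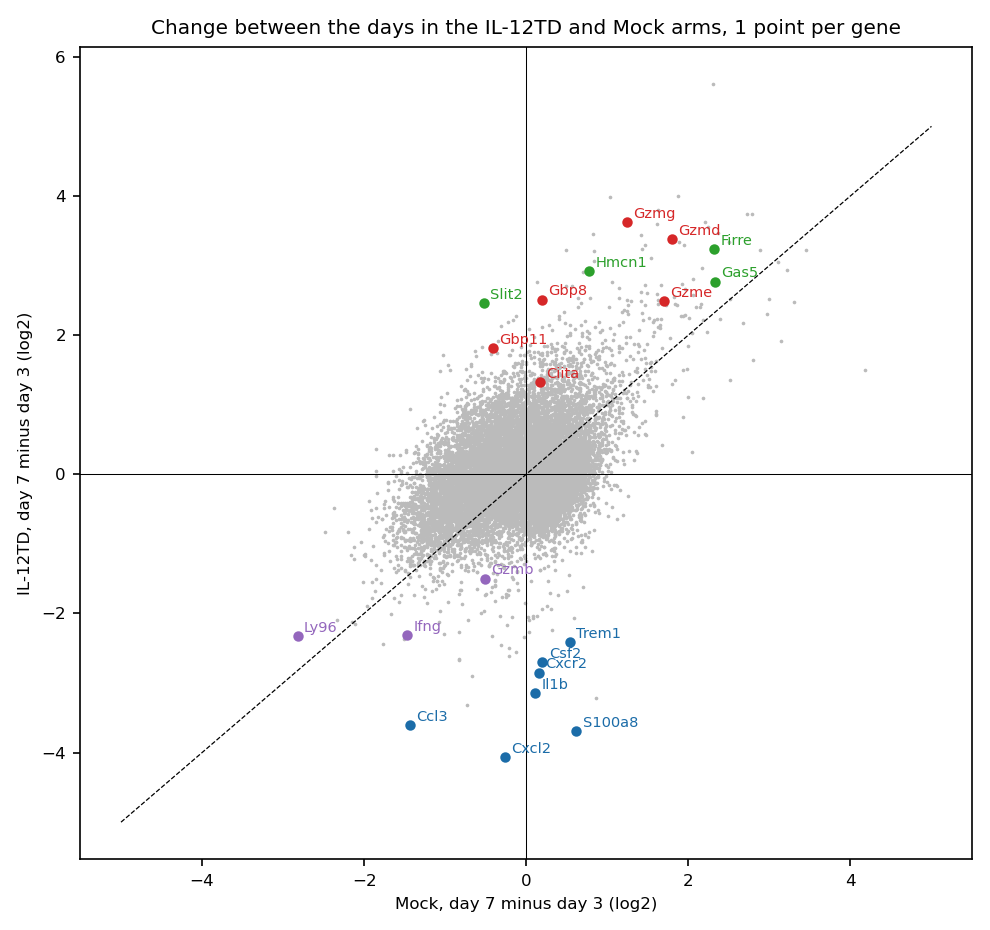
Log2 change from day 3 to day 7 in IL-12TD tumours (vertical) against that in Mock tumours (horizontal), 1 point for each of 19938 genes, with the dashed line at equal change. Blue marks inflammatory and neutrophil genes and the myeloid receptor Trem1, red granzymes and interferon-induced genes, green genes among the other large rises, and purple Ifng, Gzmb and Ly96. S100a8, Cxcl2 and Il1b fell in IL-12TD tumours with a Mock change near 0 or above it, while Ly96 lay near the line.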

How the data were processed

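RNA of whole tumours was read on 24 Affymetrix arrays, 4 in each of 6 groups. The deposited values are log2 intensities, made with RMA per the submitters' processing notes and ranging from 1.009 to 14.367, and the normalization was not redone. Whether all arrays were normalized together, and the software version, are not given in the sources used here. Groups followed the labels. For Mock tumours of day 7 the protocol field speaks of 3 days, but title and time field give 7, which was used.

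Of 35556 probesets 21789 named 1 gene, 1621 several and 12146 none in the platform annotation. Symbols of 21766 were updated through RefSeq. The probeset with the highest mean was kept for each of 19938 genes, 999 of which had several. A group-means model over all arrays was fitted with limma 3.58.1 in R 4.3.3, with Benjamini-Hochberg adjustment and contrasts for the day change in each arm and for the differences between arms. The procedure was tested on simulated data. No arrays held identical values, and the number of arrays limits the precision.

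The comparison and its 38 gene lists (651 of 714 genes measured) were chosen with earlier results of these data known. Named genes were the 12 largest rises and 12 largest falls past adjusted p 0.05 and 2-fold without overlap (leaving out identifiers, olfactory and vomeronasal receptors, microRNAs and small nucleolar RNAs), up to 3 genes per list with the smallest adjusted p, 18 fixed genes (17 measured) and the 8 largest differences from Mock each way, 151 in all. Other genes in the text, Snord118, Malat1 and further list members among them, were chosen after their values were seen. The alternatives were repeated quantile normalization, median centring, a filter on dim genes (above the 40th percentile on at least 4 arrays, 13424 genes kept), all or averaged probesets, array weights, another variance prior, fewer arrays, each array left out, and a replicate block. Removal of a trend in gene span and level (splines with 4 degrees of freedom, 18565 genes) was added after seeing the data. Replicate numbers were checked for pairing and were not treated as pairs.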

Additional observations from a re-analysis of the deposited data

Results flagged for a closer look

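Among 302 groups of 4 arrays screened for a single array far from the others by Dixon's test, 20 stood out, and chance gives about 1 in 20 groups. At day 3, replicate 1 was low for Csf2 (6.33, others 6.98 to 7.01), Cd2 (7.2, others 7.58 to 7.6) and Il12a (4.54, others 5.03 to 5.12), and high for Sdc1 (6.58, others 6.44 to 6.46) and Alas2 (4.82, others 4.45 to 4.48). Day 3 replicate 3 was low for Mx1 (5.76, others 6.42 to 6.52), Mmp2 (7.76, others 8.07 to 8.13) and Grik2 (5.4, others 5.72 to 5.78), and high for Pmaip1 (5.87, others 5.16 to 5.22). Day 3 replicate 4 was high for Cd14 (8.02, others 6.29 to 6.48) and Hdc (8.26, others 6.6 to 6.86).

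At day 7, replicate 1 was high for Nlrc5 (10.96, others 10.82 to 10.83) and low for Vegfa (9.46, others 10.2 to 10.23) and Il12b (4.72, others 5.05 to 5.11). Day 7 replicate 2 was low for Ly75 (7.41, others 7.73 to 7.76), Grik2 (7.2, others 8.02 to 8.1) and Nbeal1 (7.06, others 7.98 to 8.07). Replicate 3 was low for H2-Aa (10.39, others 10.46) and high for Emcn (4.64, others 4.42 to 4.45), and replicate 4 was high for Klrc1 (7.1, others 6.43 to 6.54).

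The day change differed between the IL-12TD and Mock arms, by limma's test of the difference, for 8467 genes, and between the IL-12TD and untreated arms for 5517. The largest differences from Mock above 0 were Slit2 (2.98), Atm (2.75), Taf2 (2.55), Epha3 (2.52), Cdc42bpa (2.45), Cubn (2.44), Grik2 (2.41) and Nbeal1 (2.4). Those below 0 were S100a8 (-4.31), S100a9 (-4.08), Cxcl2 (-3.81), Il1f9 (-3.3), Il1b (-3.26), Cxcr2 (-3.01), Trem1 (-2.95) and Csf2 (-2.9).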

How the results depend on the processing

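The count of genes that differed between the days in IL-12TD tumours was 8330, and it was 15710 when each of the 35556 probesets was tested alone, where more features are tested. The difference from Mock, called for 8467 genes, fell to 4998 after repeated quantile normalization and to 4055 after removal of the span and level trend. The difference from untreated tumours, called for 5517 genes, was 3272 and 2667 under the same settings and 8395 over all probesets. The cause was not tested. With each array left out in turn these counts ran from 7140 to 8142, from 7082 to 9408 and from 4233 to 6015. With the replicate number as a block they were 8328, 8477 and 5556, and same-numbered IL-12TD arrays of the days correlated at -0.07 to 0.13, so the numbers were not read as pairs. The share of calls that were higher moved from 48.4% to 36.9% with median centring for IL-12TD, from 56.7% to 74.3% without dim genes for the difference from Mock, and from 67.1% to 52.1% (quantile), 47.0% (centring) and 82.7% (without dim genes) for the difference from untreated. Of 2548 values of the 151 named genes under the alternatives, 0 were calls opposite to a main call, and 14 of 135 called genes lost the call in at least 1 of them. Changes that were not called could change sign. With the span trend removed Ptprc went from 0.38 to -0.06 and C1qa from -0.23 to 0.18. Medians near 0 changed sign in some settings, for example 0.14 for MHC class I and 0.18 for complement genes with the trend removed, -0.05 for dendritic cell and -0.03 for YAP genes with median centring. Day cannot be told apart from batch.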
